A study of Mus musculus with 2 samples.

Results

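γδ T cells of the inflamed abdominal aorta are described here across their genes. They are the cells that the authors' cell table assigns to the LCWE library and names gd T cell within the class of natural killer (NK), innate lymphoid (ILC) and T cells. The choice gave 54 cells of the 10477 in the series, all from 1 library. LCWE is a cell wall extract of Lactobacillus casei that inflames the arteries of mice, and it is used to model Kawasaki disease, a vasculitis of children. The LCWE library came from pooled abdominal aortas of 7 wild-type C57BL/6J mice. Its control came from pooled aortas of 9 wild-type C57BL/6J mice given phosphate-buffered saline (PBS). Both pools were taken 2 weeks after the injection, and the mice's age and sex are not given in the sources used here. Animals within a pool cannot be told apart and each group is 1 library, so no difference below carries a p-value. Intervals (95%) cover counting error only.

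γδ T cells carry an antigen receptor built from a γ and a δ chain in place of the αβ receptor of CD4 and CD8 T cells. In mice, one branch leaves the thymus already committed to interleukin-17 (IL-17) and settles in skin, lung, gut and other barrier and connective tissues. Such cells answer IL-1 and IL-23 without a need for antigen, and IL-17A draws neutrophils by acting on stromal cells. Another branch makes interferon γ and carries Cd27.

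The 54 γδ T cells were 1.06% of the 5091 LCWE cells (Clopper-Pearson interval 0.798 to 1.38%) and 2.46% of its 2198 NK, ILC and T cells (1.85 to 3.19%). In the PBS library 1 cell of 5386 had the name (0.0186%, 0.00047 to 0.103%). That was 1 of 75 NK, ILC and T cells (1.33%, 0.0338 to 7.21%). The share of all cells was 57.1 times higher in the LCWE library (9.83 to 2298), whereas the intervals of the share within the lymphoid class overlapped. The PBS cell had 3395 UMIs (unique molecular identifiers, each counting 1 captured transcript). Among them were 4 of Cd163l1, 2 of Cd3e, 12 of Cxcr6 and 7 of Tmem176a, and 0 of Blk, Il17a and Il23r. With 1 PBS cell, expression could not be compared between the groups, and all comparisons below lie within the LCWE library.

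The γδ T cells together held 240784 UMIs, 0.57% of the library's 42275754. A cell had 1805 to 19935 UMIs (median 3767), a median of 1546.5 genes and 1.84 to 8.40% mitochondrial UMIs. The other 2144 cells of the NK, ILC and T class had a median of 3991 UMIs and 1403.5 genes. The 224 B cells, used below as a class that should lack most T cell transcripts, had a median of 2818 UMIs. With each cell thinned to 1767 UMIs, the median number of genes was 920 in γδ T cells and ranged from 673 in naive CD8 cells to 925 in proliferating T cells. Ribosomal protein genes took 22.6% of the UMIs in γδ T cells, 32.5% in the other lymphoid cells and 23.1% in the class of regulatory and activated CD4 cells. Of all barcodes, 8 occurred in both libraries, none of them from a γδ T cell.

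The 3 markers set for the class were Cd163l1, Cd3e and Ccr6. Cd163l1 encodes SCART1, a scavenger receptor of γδ T cells, and Cd3e and Cd3g encode CD3 chains that every T cell receptor needs. Cd163l1 had 197 UMIs in 37 of the 54 cells, with 0 to 13 UMIs per cell and a median of 4. Cd3e had a UMI in 48 cells (0 to 9 UMIs, median 2), and Cd3g in all 54 (2 to 29 UMIs, median 5). The marker Ccr6, the receptor of CCL20, had 8 UMIs in 5 cells and was the thinnest of the 3. Among B cells, 1 of 224 had a Cd163l1 UMI (0.446%), 12 had Cd3e (5.36%) and 13 had Cd3g (5.80%). Ccr6, which B cells also use, was seen in 10.3% of B cells and 9.26% of γδ T cells. The genes of the γ, δ, α and β receptor chains in the lists were not matched to a symbol in the files and could not be used as a check of the name.

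Levels are given as CPM, the summed UMIs of a gene in a class per 1000000 UMIs of that class, so that 1 UMI in the γδ T cells is 4.15 CPM. A gene counted as measured with 20 UMIs seen in the γδ T cells, or 20 expected there at the level of the other lymphoid cells. It was called higher or lower at a 2-fold ratio with an interval wholly beyond 1.5-fold. Gene lists used a wider filter: a member was counted with 20 UMIs in the whole lymphoid class, even where it had fewer in γδ T cells, and was called by the same fold and interval. Since the authors' classes rest on these same genes, ratios against other classes describe the cells and test nothing. Of 1997 genes measured, 232 (11.6%) were higher in γδ T cells than in the other 2144 NK, ILC and T cells, and 79 (3.96%) were lower. The median log2 ratio over these genes was 0.28. With CPM computed over genes other than ribosomal and mitochondrial ones, that median was 0.07, and 172 genes were higher and 100 lower.

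**Figure D1:**
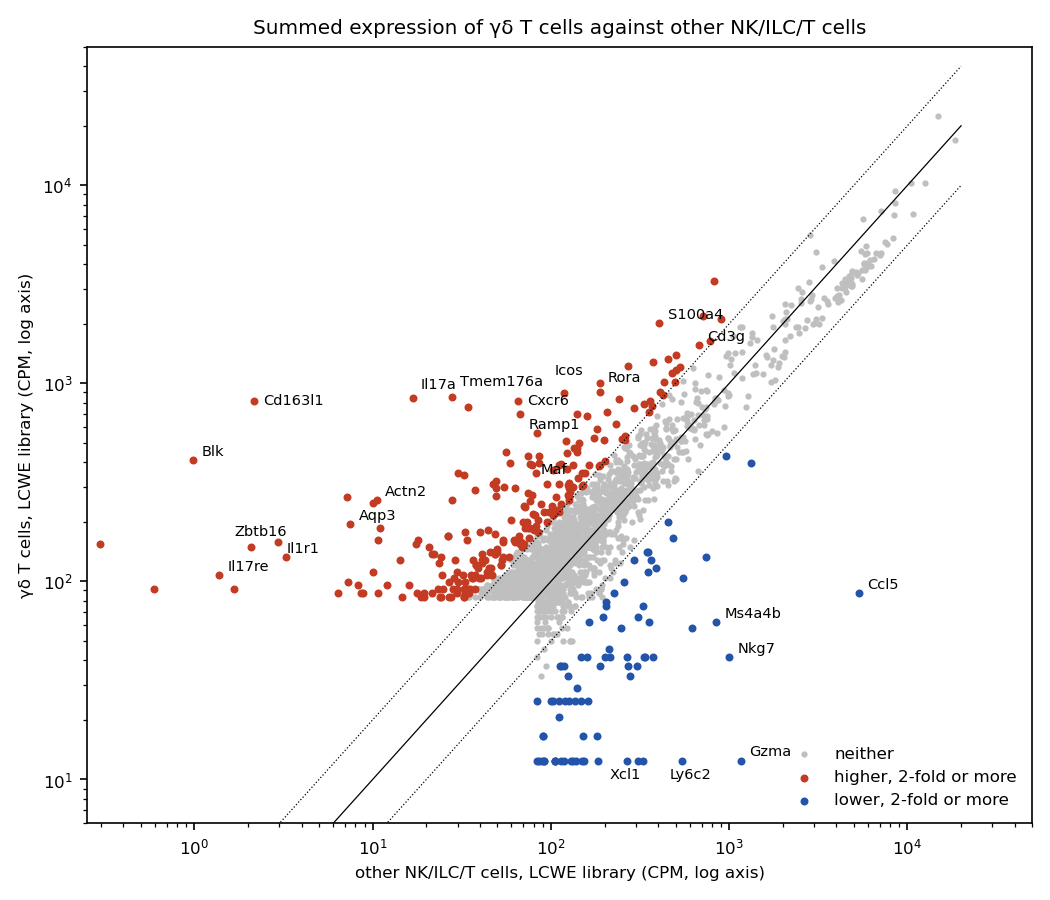
Summed level of each of the 1997 measured genes in γδ T cells (vertical axis, CPM) against the other NK, ILC and T cells of the LCWE library (horizontal axis, CPM), both on log axes, with sums under 3 UMIs drawn at 3. The solid line marks equal levels and the dotted lines a 2-fold difference; red points are the 232 genes called higher and blue points the 79 called lower. Cd163l1 and Blk lie farthest above the line among the named genes, and Gzma and Ccl5 far below it.

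Lineage genes stood furthest apart. Blk, a Src-family kinase of B cells that γδ T cells also use, had 99 UMIs in 45 γδ T cells (0 to 8 per cell, median 1) and 10 UMIs in the other lymphoid cells. Its level was 411 CPM against 0.99, a ratio of 417 (218 to 897). B cells were the next class, at 126 CPM, and Blk was seen in 32.6% of them against 83.3% of γδ T cells. The level of Cd163l1 was 818 CPM against 2.17, a ratio of 377 (242 to 616), and the γδ T cells held 74.3% of the library's 265 UMIs of that gene. Cd163l1 lies on chromosome 7 (chr7:140218267-140231145, plus strand, GRCm38). Its neighbour 5830411N06Rik (chr7:140247284-140300736) encodes SCART2, a related scavenger receptor, and reads from stretches the genes share cannot be told apart here. 5830411N06Rik had 9 UMIs in 5 cells, 37.4 CPM against 2.37. Sox13, a transcription factor of γδ T cell development, had 6 UMIs in 5 cells against 2 UMIs in all other lymphoid cells, a ratio as counted of 126 (22.6 to 1280). Outside the lymphoid cells, the blood endothelial class (BEC) held 54.5% of the library's Sox13 UMIs, at 57.2 CPM against 24.9 in γδ T cells. Sox4 was not called (24.9 against 39.2 CPM), and Etv5 had 1 UMI. Of the 4 lineage genes counted, 3 were higher and 0 lower. Over the 10500 genes under the filter of the lists, 4.06% were higher and 1.32% lower, with a median log2 ratio of 0.47 that includes genes raised to 3 UMIs. These shares and this median are the comparison for every list below.

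The type 17 genes, those of cells that make IL-17, were higher nearly throughout. Of 17 members counted, 15 were higher and 0 lower, with a median log2 ratio of 4.48. Among its transcription factors was Zbtb16, which encodes PLZF, a factor of innate-like T cells. It was seen in 23 cells, with 150 CPM against 2.07. Among all 21 LCWE classes with 50 cells or more, γδ T cells had the highest Zbtb16 level, with contractile smooth muscle (VSMC_1) next at 18.3 CPM. Rora, a nuclear receptor that takes part in type 17 programs, had 218 UMIs in 49 cells (0 to 12 per cell, median 4). Its 905 CPM against 187 gave a ratio of 4.83 (4.18 to 5.56). Maf, a factor needed by IL-17-producing γδ T cells, had a ratio of 4.92 (3.93 to 6.11). Ahr was at 49.8 against 21.3 CPM and Batf at 66.4 against 94.4, and neither was called.

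Il17a, the cytokine gene of this program, was spread unevenly over the γδ T cells. Its 204 UMIs came from 27 of the 54 cells (50%, 36.1 to 63.9%), and the other 27 had none. The 3 highest cells had 35, 29 and 22 UMIs, 42.2% of the total, and the median over all 54 was 0.5. No B cell had an Il17a UMI (0 of 224, up to 1.63%), and thinned to 1767 UMIs the share of γδ T cells with a UMI was 40.5%. The level was 847 CPM against 16.8 in the other lymphoid cells, a ratio of 50.6 (41.0 to 62.3). Of the 170 Il17a UMIs in those other cells, 115 came from 1 regulatory or activated CD4 cell. Without that cell, left out after the values were seen, the ratio was 156 (115 to 214).

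Across the whole LCWE library Il17a had 431 UMIs in 49 cells, and the γδ T cells, 1.06% of cells, held 47.3% of them (42.5 to 52.2%). Regulatory and activated CD4 cells held 34.6%, in 9 of 294 cells. A smooth muscle class (VSMC_2) had 35 Il17a UMIs in 2 of its 283 cells, and a dendritic class (DC2) had 13 in 1 cell. Whether those cells share a droplet with a lymphocyte was not tested. With the single richest CD4 cell left out, the γδ share of Il17a was 64.6%.

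Il17f, which encodes a partner of IL-17A, had 13 UMIs in 4 γδ T cells, 6 of them in 1 cell. Its level was 53.99 CPM against 2.66 (ratio 20.3, 9.61 to 40.7), and γδ T cells held 30.2% of the library's 43 UMIs (17.2 to 46.1%). For Il22, a cytokine that acts on epithelium, the γδ T cells had 11 UMIs in 3 cells, 9 of them in 1 cell. CD4 cells of the regulatory and activated class held 71.7% of the Il22 UMIs and γδ T cells 20.8%. Il17a and Il17f occurred together in 3 cells, Il17a and Il22 in 0.

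**Figure D2:**
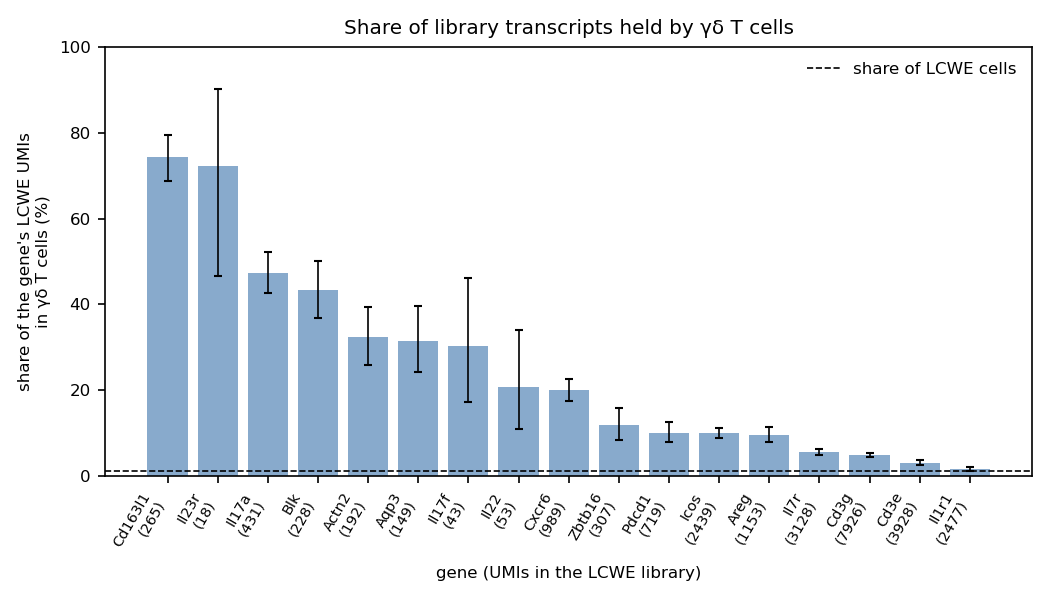
Bars give the share of each gene's UMIs in the LCWE library that lay in γδ T cells (%), with Clopper-Pearson 95% intervals as error bars, and the number under each gene is its UMIs in the library. The dashed line is the share of cells, 1.06%. Cd163l1 and Il23r stand at 74.3% and 72.2%, Il17a at 47.3%, and Cd3e and Il1r1 at 3.004% and 1.53%.

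Several receptor chains for cytokines that drive IL-17 were also higher in γδ T cells. Il23r, the specific chain of the IL-23 receptor, had 13 UMIs in 11 γδ T cells and 1 UMI in all other lymphoid cells, 53.99 CPM against 0.10. That ratio as counted was 548, with an interval of 82.3 to 23274. The γδ T cells held 72.2% of the library's 18 Il23r UMIs (46.5 to 90.3%). Il1r1, the receptor of IL-1, had 38 UMIs in 23 cells, at most 3 in a cell. Its level was 158 CPM against 2.96, a ratio of 53.4 (32.2 to 89.2). Fibroblasts had an Il1r1 level of 181 CPM and held 72.8% of the library's UMIs. Il17re, a subunit of the IL-17C receptor, had 26 UMIs in 19 cells, 108 CPM against 1.38 (ratio 78.2, 39.4 to 162). Il7r, the survival receptor for IL-7, had 172 UMIs in 47 cells (0 to 13, median 3) and a ratio of 3.47 (2.95 to 4.05). Il18r1 was higher at 216 against 81.3 CPM, as was Il12rb1, the chain that the IL-12 and IL-23 receptors share, at 41.5 against 6.31.

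Of the 19 cytokine receptor genes counted, 4 were higher and 2 lower. Their median log2 ratio was 0.21, against 0.47 over the 10500 genes under the same filter. The lower pair were the IL-6 receptor chains. Il6ra had 0 UMIs, against 47.6 CPM in the other cells, 3.82-fold lower with 0 raised to 3 UMIs. Il6st had 1 UMI against 45.7 CPM. Il2rb, at 166 against 172 CPM, and Il2rg, at 228 against 197, were not called. Il1rap, seen in 3 γδ T cells, and Il18rap, seen in 16, were not called either.

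For the subunits of IL-23, Il23a had its largest share in the class that the authors name Eosinophil (76.8%). Il12b had it in a dendritic class named DC3 (75%), and γδ T cells had 0 UMIs of Il23a and Il12b. Il1b, which encodes an IL-1 ligand, had 17 UMIs in 10 γδ T cells, 70.6 CPM against 88.4, and was not called. The IL-17 receptor chains Il17ra and Il17rc had their largest shares in fibroblasts, 24.6% and 47.3%. In γδ T cells, Il17ra was at 62.3 CPM against 81.7.

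Promoter sequences are shown for 3 of these genes whose windows hold the half-site AGGTCA, which the protein of Rora binds. Rora was higher in γδ T cells than in the other lymphoid cells pooled. Il22, Il1r1 and Il17re have a promoter window without the half-site. The printed sequences are RefSeq windows of GRCm38.p6, from 250 bases before to 50 after the gene start, written along the gene's strand. Capitals mark AGGTCA or its reverse complement TGACCT. Il17a is at chr1:20730655-20730954 (plus strand), Il17f at chr1:20784221-20784520 (minus strand) and Il23r at chr6:67491806-67492105 (minus strand).
Il17a: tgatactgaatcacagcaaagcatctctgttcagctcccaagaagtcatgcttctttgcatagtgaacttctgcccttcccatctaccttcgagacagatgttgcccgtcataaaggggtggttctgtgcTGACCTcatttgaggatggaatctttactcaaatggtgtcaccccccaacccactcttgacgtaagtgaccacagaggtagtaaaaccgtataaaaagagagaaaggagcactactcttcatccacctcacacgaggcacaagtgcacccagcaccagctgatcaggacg
Il17f: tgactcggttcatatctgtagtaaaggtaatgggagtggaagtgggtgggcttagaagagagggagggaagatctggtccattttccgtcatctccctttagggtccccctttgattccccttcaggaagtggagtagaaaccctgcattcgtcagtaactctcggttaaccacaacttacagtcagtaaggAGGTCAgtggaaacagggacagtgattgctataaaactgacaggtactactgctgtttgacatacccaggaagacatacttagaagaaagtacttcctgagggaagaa
Il23r: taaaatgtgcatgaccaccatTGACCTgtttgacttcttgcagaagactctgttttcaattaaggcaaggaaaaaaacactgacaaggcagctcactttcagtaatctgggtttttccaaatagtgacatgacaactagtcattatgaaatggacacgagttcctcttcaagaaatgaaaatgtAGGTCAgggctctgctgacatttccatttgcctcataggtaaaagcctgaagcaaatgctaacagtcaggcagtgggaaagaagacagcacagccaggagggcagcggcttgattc
AGGTCA, on either strand, lies in 5 of the 13 type 17 genes with a promoter in the table (Il17a, Il17f, Il23r, Ccr6 and Actn2). It lies in 4 of the 19 genes with a promoter among the 25 with the highest ratios. For comparison, it occurs in 16.3% of 32851 promoters of this length and in 18.1% of 27025 genes when any of a gene's promoters counts. A match of letters describes the window and is not evidence of binding.

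Further type 17 members have less settled roles. Tmem176a and Tmem176b, membrane proteins found in type 17 lymphocytes, had UMIs in 51 and 50 cells. Tmem176a stood at 856 CPM against 27.8 (ratio 30.8, 25.6 to 37.0), with 0 to 12 UMIs per cell and a median of 3. Tmem176b stood at 760 against 34.1. The annotated spans of the Tmem176a and Tmem176b genes overlap on opposite strands, and the sources used here do not state how strand was counted. Both were also abundant in dendritic class DC3 (Tmem176a 1626 CPM). Aqp3, a water and glycerol channel, had 195 CPM against 7.49. Actn2, an actinin better known from muscle, had 62 UMIs in 32 cells and 257 CPM against 10.5 (ratio 24.4, 17.6 to 33.7). No other class of 50 cells or more reached the Actn2 level of γδ T cells, with naive CD8 cells next at 20.9 CPM. Serpinb1a, a protease inhibitor, had 249 against 10.1 CPM, and Ltb4r1, the receptor of the lipid attractant leukotriene B4, 187 against 10.9. Neutrophils had 299 and 211 CPM of Serpinb1a and Ltb4r1.

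**Figure D3:**
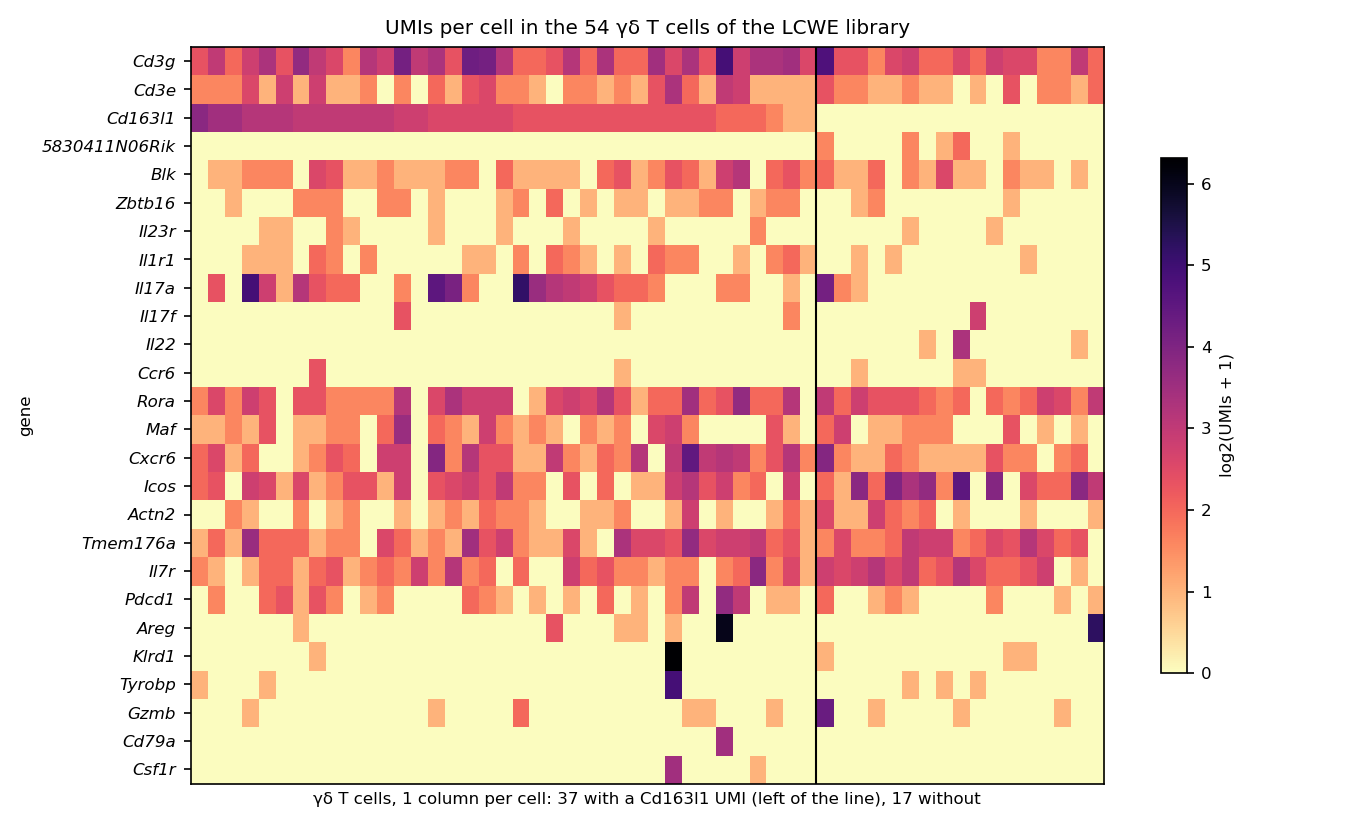
UMIs per cell, as log2(UMIs + 1), of 26 genes (rows) in the 54 γδ T cells (columns), ordered by Cd163l1 and then Il17a, with a line between the 37 cells with a Cd163l1 UMI and the 17 without. Cd3g is filled in every column, Il17a is dark in a few, and the 5 cells with 5830411N06Rik all lie right of the line.

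Cd163l1 divided the cells by detection, and the division was drawn after its values were seen. The 37 cells with a Cd163l1 UMI had a median of 3852 UMIs and the 17 without had 3700. Cd3g was found in all 37 and all 17, and Blk in 32 and 13. Il17a was found in 24 of 37 and 3 of 17, Zbtb16 in 20 and 3, and Il1r1 in 20 and 3. The 5 cells with 5830411N06Rik all lacked Cd163l1, as did the 3 cells with Il22 and the 5 with Il17rb, a receptor chain for IL-25. Of 1570 genes that passed the filters, 7 (0.446%) were higher in the cells with Cd163l1 and 14 (0.892%) in those without. Il17a (1112 against 265 CPM, ratio 4.19, 2.63 to 7.02), Il1r1 (212 against 39.8) and the annexin Anxa5 were among the former. The latter included Pxdc1 (704 against 66.5 CPM), Ramp3, which encodes a receptor-modifying protein (757 against 109), the transcription cofactor Lmo4 (836 against 199), Klf4 (1367 against 393) and Icos (1659 against 701). In the cells without Cd163l1, Il17a came from 3 cells, with 20 UMIs in all, 17 of them in 1 cell. Without that cell 3 UMIs remained, 47.6 CPM, and the ratio between the sets was 23.3 (7.86 to 114). That cell was left out after the values were seen, and the richest Il17a cells of the set with Cd163l1 were kept.

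Genes of tissue residence and migration were in part higher. Of 20 counted, 8 were higher and 1 lower (median log2 ratio 0.90). Cxcr6, a chemokine receptor of tissue lymphocytes, had 197 UMIs in 47 cells (0 to 21, median 2), 818 CPM against 65.7, a ratio of 12.5 (10.6 to 14.6). The next class was activated CD8 cells at 191 CPM of Cxcr6 (169 to 216). Itgae, the CD103 integrin chain, was at 162 against 18.0 CPM, and Ccr2, a receptor for inflammatory chemokines, at 295 against 63.1. Among the lymphoid classes, NK cells followed for Ccr2 at 215 CPM. Cd44 (ratio 3.50), Rgs1 (2.94), Gpr183 (3.34) and Cxcr4 (2.09) were higher by less. The early activation marker Cd69 was not called (332 against 380 CPM), nor was Itga1, which had 0 UMIs. Cxcr3, a receptor of type 1 T cells, was the lower member, with 2 UMIs against 71.5 CPM.

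Receptors that tune activation were split. Of 12 counted, 3 were higher and 3 lower. Icos, a costimulatory receptor, had 241 UMIs in 45 cells (0 to 22, median 3.5), 1001 CPM against 189, a ratio of 5.30 (4.61 to 6.06). Pdcd1, which encodes the inhibitory receptor PD-1, had 72 UMIs in 28 cells and a ratio of 5.5 (4.24 to 7.05). Havcr2 had 8 UMIs in 4 cells. Foxp3, the factor of regulatory T cells, had 0 UMIs. So did Tnfrsf4 (OX40), against 138 CPM in the other cells, 11.1-fold lower with 0 raised to 3 UMIs (interval from 8.98). Tnfrsf18 (GITR) was at 24.9 against 161 CPM. Ctla4 was not called, at 195 against 148 CPM.

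Genes of the CD3 complex were detected in most γδ T cells, while Lck and several costimulatory partners were low. Of 17 receptor signalling genes counted, 1 was higher and 6 lower. The higher gene was Cd3g, at 1562 against 674 CPM (ratio 2.32, 2.08 to 2.57). The other cells include 281 NK cells, and the next class, regulatory and activated CD4 cells, had 1115 CPM of Cd3g. Activated CD8 cells had more Cd3e (531 CPM) and Cd3d (1252 CPM) than γδ T cells. Cd3e (490 against 335), Cd3d (818 against 834), Zap70 (191 against 108) and Lat (557 against 341) were not called. Lck, the kinase that starts receptor signalling in T cells, had 15 UMIs in 9 of the 54 cells, 62.3 against 357 CPM. Cd28 was 8.40-fold lower (4.25 to 19.5), with 8 UMIs in 3 cells, Cd2 was at 41.5 against 267 CPM and Cd5 at 24.9 against 100. Cd27, which separates the interferon γ branch from the IL-17 branch, had 2 UMIs in 2 cells, against 153 CPM in the other lymphoid cells. Cd6 also had 2 UMIs.

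Cytotoxic genes were low as a list. Of 14 counted, 9 were lower and 0 higher (median log2 ratio −1.96). Ccl5, a chemokine of effector lymphocytes, had 21 UMIs in 7 cells, 87.2 against 5345 CPM, 61.3-fold lower (40.1 to 99.0). Nkg7 was at 41.5 against 1002 CPM, 24.1-fold lower (13.1 to 50.3). Gzma had 1 UMI, against 1163 CPM. Ifng, Gzmk and Eomes had 0 UMIs. With 0 raised as above, Ifng was 10.5-fold lower than the 130 CPM of the other cells, which is not a lower bound. Of the 14 NK receptor genes, 11 were lower and 0 higher, and 9 had 0 UMIs, Ncr1 and Klrb1c among them. For Tyrobp, one of the 11, the log2 ratio turned from −1.30 to 0.39 without NK and proliferating T cells among the other cells. The Klra and Klrb1 genes are families of close copies, and reads may be divided among them. Klrd1 was not called, yet 79 of its 83 UMIs lay in 1 cell.

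Genes of naive and recirculating T cells were also low, with 8 of 10 lower and 0 higher (median −1.96). Ccr7, a lymph node homing receptor, had 4 UMIs in 3 cells against 152 CPM. Lef1 was at 29.1 against 141 CPM, Tcf7 at 99.7 against 258 and Klf2 at 112 against 350. Of the 6 counted genes of αβ T cells, 4 were lower and 0 higher. Cd4 had 0 UMIs, Cd8b1 1 UMI and Cd8a 4 UMIs, against 52.6, 328 and 181 CPM.

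**Figure D4:**
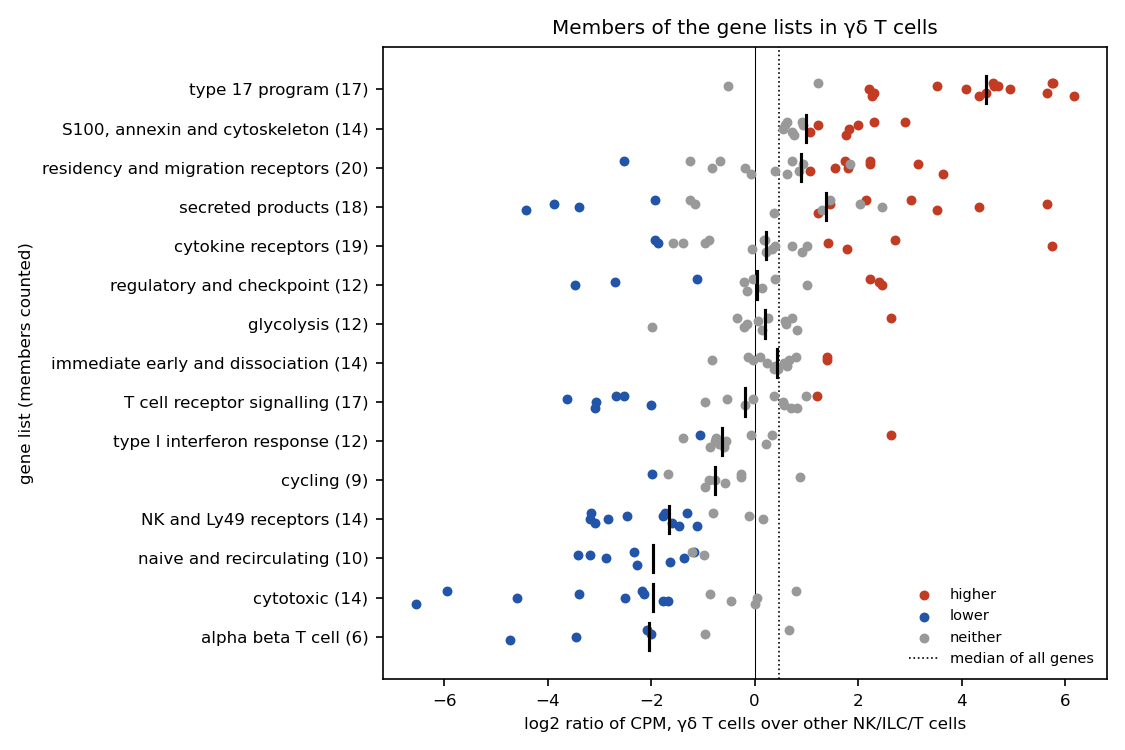
Log2 ratio of CPM in γδ T cells over the other NK, ILC and T cells for each counted member (point) of 15 gene lists (rows, with the number counted), coloured by call, with sums under 3 UMIs raised to 3. Black bars are list medians, the thin line is 0 and the dotted line the median of the 10500 genes, 0.47. The type 17 list lies right of both lines apart from Batf, and the cytotoxic, naive and αβ T cell medians lie near −2.

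Among secreted products beyond IL-17, Tnf had 26 UMIs in 16 cells, 108 against 24.4 CPM (ratio 4.43, 2.84 to 6.66). Ltb, a lymphotoxin chain that shapes lymphoid tissue, was at 1018 against 433 CPM and Tnfsf11, which encodes RANKL, at 74.8 against 27.1. Areg, a repair-linked growth factor, was at 453 against 56.0 CPM, but 64 and 37 of its 109 UMIs lay in 2 cells. Without those 2 cells 8 UMIs remained, in 5 cells, and the level was 35.5 CPM, a ratio of 0.63 (0.27 to 1.26), so that Areg was no longer called and its direction turned. In all, 7 of 18 counted products were higher, Areg included, and 4 were lower, among them Ccl4 (2 UMIs) and Xcl1 (0 UMIs, against 266 CPM). Il10, Csf2, Il4, Il5 and Il13 had 0 UMIs and were not called. They were rare in the other 2144 lymphoid cells too, seen in 22 for Il10 and in 2 to 5 for the rest.

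Calcium-binding and cytoskeletal genes that mark effector and memory cells were in part higher, with 7 of 14 higher and 0 lower. S100a4 had a UMI in all 54 cells (1 to 57, median 6.5), 2010 against 405 CPM (ratio 4.96, 4.51 to 5.46). Capg, an actin-capping protein, was at 897 against 119 CPM and S100a6 at 3289 against 825. Regulatory and activated CD4 cells had 520 CPM of Capg. In glycolysis, 1 of 12 was higher, the hexokinase Hk2 (137 against 22 CPM), and 0 were lower. Of 12 type I interferon response genes counted, 1 was higher, Oasl2 (18 UMIs), and 1 lower, Ifit1 (0 UMIs). Under the same filter, 4.06% of 10500 genes were higher and 1.32% lower. Of 14 genes that respond early to stress and tissue dissociation, 2 were higher, Fosb (519 against 197 CPM) and Atf3 (104 against 39.3), and 0 lower. Of 9 cycling genes 0 were higher and 1 was lower, Mki67, with 2 UMIs in 1 cell. Without NK and proliferating T cells among the other cells, that ratio turned from −1.99 to 0.99 on the log2 scale.

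The remaining genes with the 25 highest ratios include Kcnk1, a potassium channel (22 UMIs in 18 cells, ratio 154, 60.7 to 466), and Ly6g5b (132.9 against 3.25 CPM). Pxdc1 was at 266 against 7.20 CPM and Ramp1, a part of the receptor for the neuropeptide CGRP, at 698 against 67.0 (168 UMIs in 45 cells, ratio 10.4, 8.74 to 12.3). Contractile smooth muscle followed for Ramp1 at 423 CPM. Podnl1, Plcb4, 5430421N21Rik, Plxnd1, Adam8, Ckb and Crmp1 had ratios from 13.7 down to 10.2. The 12 lowest were Gzma, Ccl5, Ly6c2, Cd8b1, Nkg7, Xcl1, Ccl4, Ms4a4b, Cd27, Gm8369, Tnfrsf4 and Cd8a.

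Among the 8 other lymphoid classes, regulatory and activated CD4 cells had the profile most like γδ T cells, by Pearson's r of 0.917 over 10500 genes of log2(CPM + 10), a description across genes of the same library. Activated CD8 cells (0.893) and NKT cells (0.889) followed, and proliferating T cells had the lowest value, 0.859. Against the regulatory and activated CD4 cells, 105 of 2135 measured genes (4.92%) were higher in γδ T cells and 100 (4.68%) lower. The counts were 233 of 2042 (11.4%) and 84 (4.11%) against activated CD8 cells, and 262 of 2016 (13%) and 91 (4.51%) against NKT cells. Against the CD4 cells, Il17a was 7.44-fold higher (5.99 to 9.25), Il1r1 12.9-fold and Cxcr6 4.78-fold (3.93 to 5.81). Of the 149 Il17a UMIs in these CD4 cells, 115 lay in 1 cell, so that this ratio rests largely on that cell. For Rora (1.39), Maf (1.23), Icos (1.499), Pdcd1 (1.39) and S100a4 (1.51) the ratio was under 2, and for Ccr6 0.74 (0.30 to 1.55). Cd28, Cd2, Lck and Tnfrsf18 were lower against these CD4 cells too, at ratios of 0.07, 0.08, 0.16 and 0.04.

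**Figure D5:**
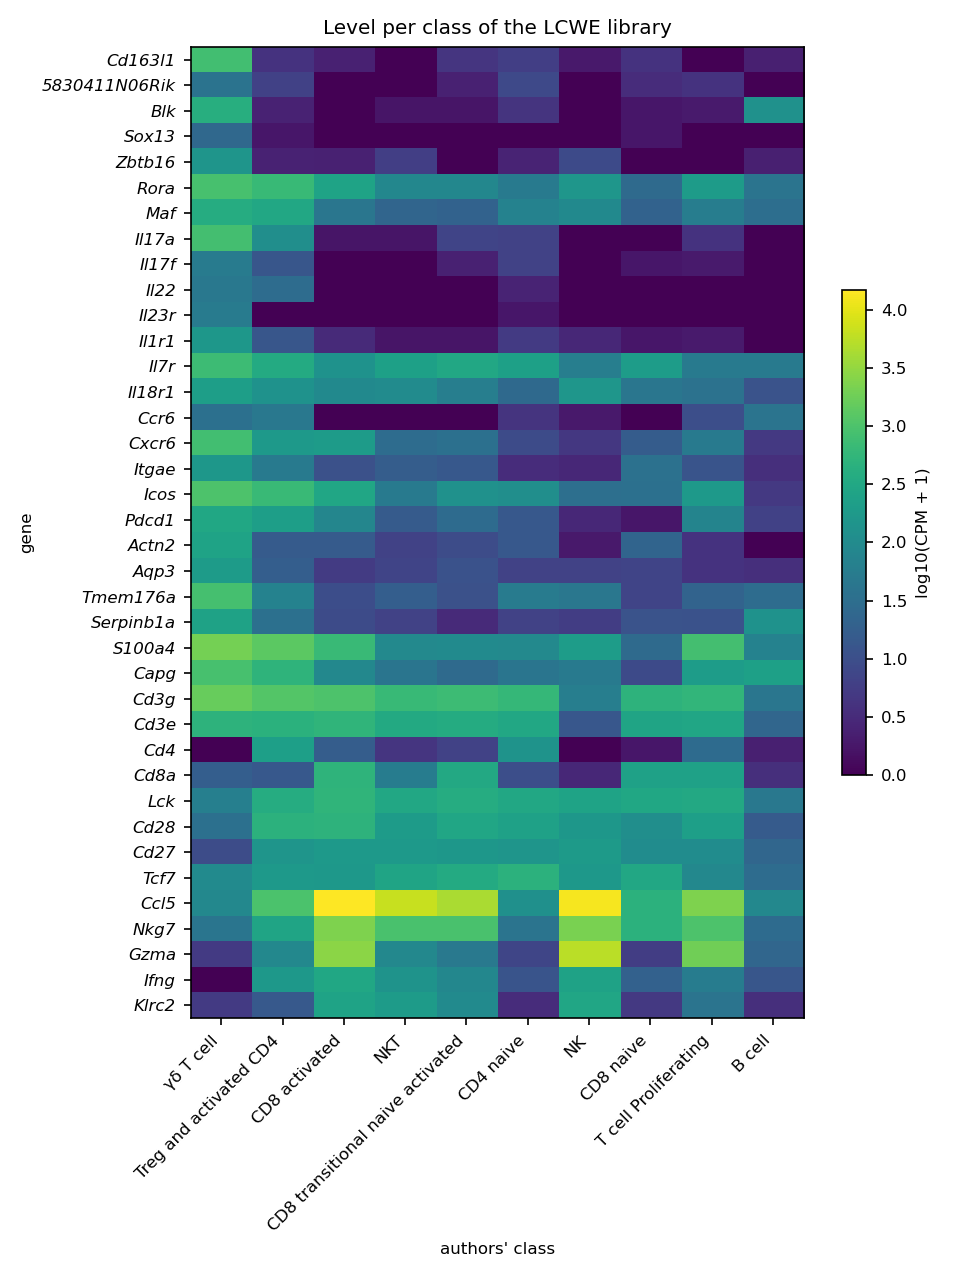
Level of 38 genes (rows) as log10(CPM + 1) in the γδ T cells, the 8 other lymphoid classes and the B cells of the LCWE library (columns, names as in the authors' table). Cd163l1, Il17a and Cxcr6 are brightest in γδ T cells, Rora and Icos are also bright in regulatory and activated CD4 cells, and Ccl5 and Gzma are dark in γδ T cells.

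Transcripts of other cell types were checked by list. Of 4 B cell markers counted 0 were called, and all 10 Cd79a UMIs lay in 1 cell, which also held the 64 Areg UMIs. Of 6 macrophage and monocyte markers Csf1r was higher, with 10 of its 11 UMIs in 1 cell, and Lyz2 lower. That cell had the most UMIs, 19935, and also held 79 Klrd1 and 29 Tyrobp UMIs. The authors' doublet score was 0.152 for it, against a median of 0.036 over the γδ T cells. The cell with the Cd79a UMIs had a score of 0.044. The highest score among the γδ T cells, 0.202, was in another cell, of 3752 UMIs. A cell of 12366 UMIs, with a doublet score of 0.058, held 19 of the 30 Gzmb UMIs and 17 of Il17a. Fibroblast markers summed to 2.93 UMIs per γδ T cell and 2.70 per other lymphoid cell, smooth muscle markers to 0.22 and 0.32, endothelial markers to 0.33 and 0.31, and granulocyte markers to 0.80 and 1.05. Of the granulocyte, fibroblast, smooth muscle and endothelial markers, 0 were called in either direction. Haemoglobin genes, a sign of blood in the tissue, summed to 11.4 and 15.4 UMIs per cell. Without the 3 γδ T cells of most UMIs, 213 genes were higher, 190 of them shared with the 232, and 70 lower, 64 of them shared with the 79.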

How the data were processed

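Droplet 3′ libraries (10x Genomics, V3 chemistry) of 1 LCWE pool and 1 PBS pool were processed with Cell Ranger 3.0.2 against mm10, per the submitters' processing notes. The deposited values are UMI counts for each gene in each cell, not normalized. The percent of mitochondrial UMIs and the doublet score per cell come from the authors' deposited cell table, which also gives the class names. Its calls of doublets and dead cells are negative for all listed cells, and no further caller was run.

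Counts of a class are sums over its cells (Python 3.11.15, numpy 2.4.6, scipy 1.17.1, pandas 2.3.3). Shares carry exact Clopper-Pearson intervals, CPM exact Poisson intervals and ratios exact conditional binomial intervals, all at 95% and for counting error only. For ranks, log2 ratios and list medians, sums under 3 UMIs were raised to 3. A fold for a gene with 0 UMIs is computed at that floor and is not a lower bound. List members needed 20 UMIs in the lymphoid class. Detection was also computed with each cell thinned to 1767 UMIs. The calls were tried on simulated Poisson sums. These hold no spread between single cells, so they could not test calls that rest on few cells. Gene positions come from GENCODE vM21 (GRCm38).

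Named were the 25 highest and 12 lowest ratios among genes outside mitochondrial, ribosomal, haemoglobin and sex-linked genes. The highest needed 20 UMIs, 10 cells, at most 20% of UMIs in 1 cell and a bound above 1.5. The lowest needed 20 expected UMIs, at most 20% of the other cells' UMIs in 1 cell and a bound under 1/1.5. All lineage and type 17 members and up to 4 members of every other list were also named; further genes in the text were chosen after their values were seen. Some items that the rule names are not reported here. The class, its members and the lists were chosen with earlier results of these data known. Alternatives changed the scaling, the weighting of cells, the reference cells, the cells kept and the UMI minimum.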

Additional observations from a re-analysis of the deposited data

How the results depend on the processing

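Of 49 alternative values of the counts, list medians and shares, 46 stayed within set limits of the reported value, with the same direction, and 3 did not. The limits were 1.5-fold for counts of genes and the interval of the reported value for shares. For list medians they were the medians of the members' interval bounds. With a minimum of 50 UMIs, which tests fewer genes, 113 genes were higher and 36 lower, against 232 and 79. With the library's richest Il17a cell left out, an alternative chosen after seeing the data, the γδ share of Il17a UMIs was 64.56%, and over the other alternatives it was 42.68% at the lowest. Scaling to genes outside ribosomal and mitochondrial ones gave 172 higher and 100 lower, a minimum of 10 UMIs 336 and 114, and only the 37 cells with Cd163l1, also chosen after seeing the data, 181 and 61. The list medians ranged from 4.27 to 4.64 (type 17), −2.168 to −1.498 (cytotoxic) and −2.17 to −1.64 (naive), and the share of cells from 0.943 to 1.11%. For single genes, the log2 ratio of Areg turned negative (−0.66) without the 2 cells richest in it, an alternative chosen after seeing the data, and those of Mki67 and Tyrobp turned positive (0.99 and 0.39) without NK and proliferating T cells among the other cells; 862 further values stayed within their interval and 75 moved. The log2 ratio of Il22 was 3.53, and 1.78 with only the 48 cells that had Cd3e. No paired analysis was possible because each group is 1 library. Depth limits the description: 3 UMIs in the class are 12.5 CPM, and genes below that could not be told from 0.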
